A study of Mus musculus with 8 samples.

Results

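Follicular helper T cells are CD4 T cells that enter the B cell follicles of lymphoid organs and give germinal centre B cells the signals for class switching and affinity selection. They are drawn in by the chemokine receptor CXCR5, carry high levels of the costimulatory receptor ICOS and the inhibitory receptor PD1, and help B cells through CD40 ligand and interleukin 21. Peyer's patches are the lymphoid follicles of the small intestinal wall, hold germinal centres at all times through exposure to gut bacteria and food, and are a main site of IgA induction. The gene group described here is Cxcr5, Icos, Pdcd1, Il21, Sh2d1a, Cd40lg, Btla, Tox2, Maf and Cd200, listed by name; no measured value enters the rule, though the list was written with earlier results of these data known. Every probe set whose annotation names exactly 1 of them was taken, 19 in all, and the 10 genes are 10 of 18193 that the annotation names.

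Each array holds the RNA of Peyer's patches from C3H/HeJ mice, 8 arrays in all; this is an inbred strain that carries a defective Tlr4 and responds poorly to bacterial lipopolysaccharide. Mice of both sexes entered at 6 weeks of age and received ovalbumin (OVA), a protein of egg white, at 40 mg per kg body weight per day, or normal saline as the vehicle, by gavage on 28 consecutive days. There were 2 controls (female control 7 and male control 8) and 6 OVA mice (female OVA 2 and 12, male OVA 1, 5, 8 and 13), each number read here as 1 mouse with 1 array; the comparison asks which transcripts of the patch differ after repeated oral OVA, in mice that the submitters call allergic. The labels give no antibody or symptom score for a mouse, do not say whether patches of several mice were pooled, and describe an RNA extraction from parietal cortex of a patient, which goes against the tissue and species they state. On these arrays the B cell list summed to intensities of 5610 to 6515 in the controls and 6158 to 12817 in the OVA arrays, and the T cell list to 1231 to 1472 and 1405 to 2157. The neuron and glia list summed to 150 to 171 and 149 to 222, with 4 of 13 measured genes past the filter on low values, so most defining genes of brain lay below the filter and those of a lymphoid follicle did not.

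Levels are the authors' deposited linear intensities, 1 value per probe set and array. Differences are OVA minus control on the scale of log2(intensity + 4.88), with sex as a covariate, and compress the change of dim genes. Only probe sets above a mean intensity of about 11.9, the median of all, were tested, 22518 in all. A gene is represented by its brightest probe set, and 16 of the 19 probe sets and 9 of the 10 genes passed the filter; Cd40lg did not. In whole patches, fewer cells of a type and less RNA per cell cannot be told apart.

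Promoter sequence was in the RefSeq table (GRCm38.p6) for 5 of the 10 genes, Pdcd1, Il21, Btla, Tox2 and Cd200. The 250 bases before an annotated start are shown because T cell receptor signals act through NFAT and AP-1 factors and cytokine signals through STAT factors. A further reason is that Btla and Cd200 lie next to each other on chromosome 16 with 0 protein-coding genes between them. Both strands were searched for the NFAT core GGAAAA, the AP-1 site TGANTCA, the STAT site TTCNNNGAA and the TATA box TATAAA, and the capitals mark every match. For Tox2, 1 of 5 annotated windows is shown, chosen for its matches; a window shifted by a single base holds the same ones, and the remaining 3 hold 0.
Il21, chr3:37232637-37232886, minus strand: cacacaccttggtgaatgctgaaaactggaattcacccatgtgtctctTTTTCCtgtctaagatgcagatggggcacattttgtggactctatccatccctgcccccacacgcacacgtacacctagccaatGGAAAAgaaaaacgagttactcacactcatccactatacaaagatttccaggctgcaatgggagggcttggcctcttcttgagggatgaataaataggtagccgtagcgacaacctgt
Tox2, chr2:163225203-163225452, plus strand: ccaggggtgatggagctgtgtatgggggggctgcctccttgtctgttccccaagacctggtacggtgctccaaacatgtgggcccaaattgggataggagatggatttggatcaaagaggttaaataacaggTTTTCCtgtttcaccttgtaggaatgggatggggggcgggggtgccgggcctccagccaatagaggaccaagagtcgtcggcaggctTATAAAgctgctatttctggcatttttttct
Pdcd1, chr1:94052554-94052803, minus strand: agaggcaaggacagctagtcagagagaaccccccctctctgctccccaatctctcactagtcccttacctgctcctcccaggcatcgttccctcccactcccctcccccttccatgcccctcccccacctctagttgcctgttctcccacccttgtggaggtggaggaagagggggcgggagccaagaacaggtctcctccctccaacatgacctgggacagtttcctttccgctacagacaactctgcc
Btla, chr16:45224087-45224336, plus strand: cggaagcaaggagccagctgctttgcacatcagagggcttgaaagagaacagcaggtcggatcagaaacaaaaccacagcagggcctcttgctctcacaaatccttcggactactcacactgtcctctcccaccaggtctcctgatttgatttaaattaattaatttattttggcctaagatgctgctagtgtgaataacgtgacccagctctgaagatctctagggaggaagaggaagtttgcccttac
Cd200, chr16:45409054-45409303, minus strand: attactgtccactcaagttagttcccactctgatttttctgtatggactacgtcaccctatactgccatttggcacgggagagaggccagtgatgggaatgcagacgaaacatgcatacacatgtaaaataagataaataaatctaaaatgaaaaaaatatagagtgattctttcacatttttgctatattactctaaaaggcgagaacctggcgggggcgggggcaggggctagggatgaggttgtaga

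The Il21 window held 2 matches to the NFAT core, at 202 to 197 bases before the start on the opposite strand and at 118 to 113 bases before it on the gene's own strand. The Tox2 window held an NFAT core match at 118 to 113 bases and a TATA box match at 31 to 26 bases before its start. Of the 32851 windows of this length in the table, 20.4% hold the NFAT core, 12.4% the TATA box, 7.02% the STAT site and 6.75% the AP-1 site. None of the 4 motifs matched in the Pdcd1, Btla and Cd200 windows shown, which says only that these letters are not in these 250 bases. A match is a description of the sequence, not a bound site.

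Across OVA and control, 8 of the 9 tested genes had a positive difference, where 53.7% of all 11988 genes tested did, and none passed the adjusted threshold of 0.05. The median difference over all 10 genes was 0.43, against 0.019 over all genes. Over all genes tested, 0.00% passed after Benjamini-Hochberg adjustment (limma), the smallest adjusted p of any probe set being 0.21. Without adjustment, p was under 0.05 with a positive difference for 3 of the 9 genes, Icos, Sh2d1a and Tox2, where 6.39% of all genes were so called and 3.82% with a negative difference. With 2 controls, the error of each difference rests mainly on the spread among the OVA mice.

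**Figure D1:**
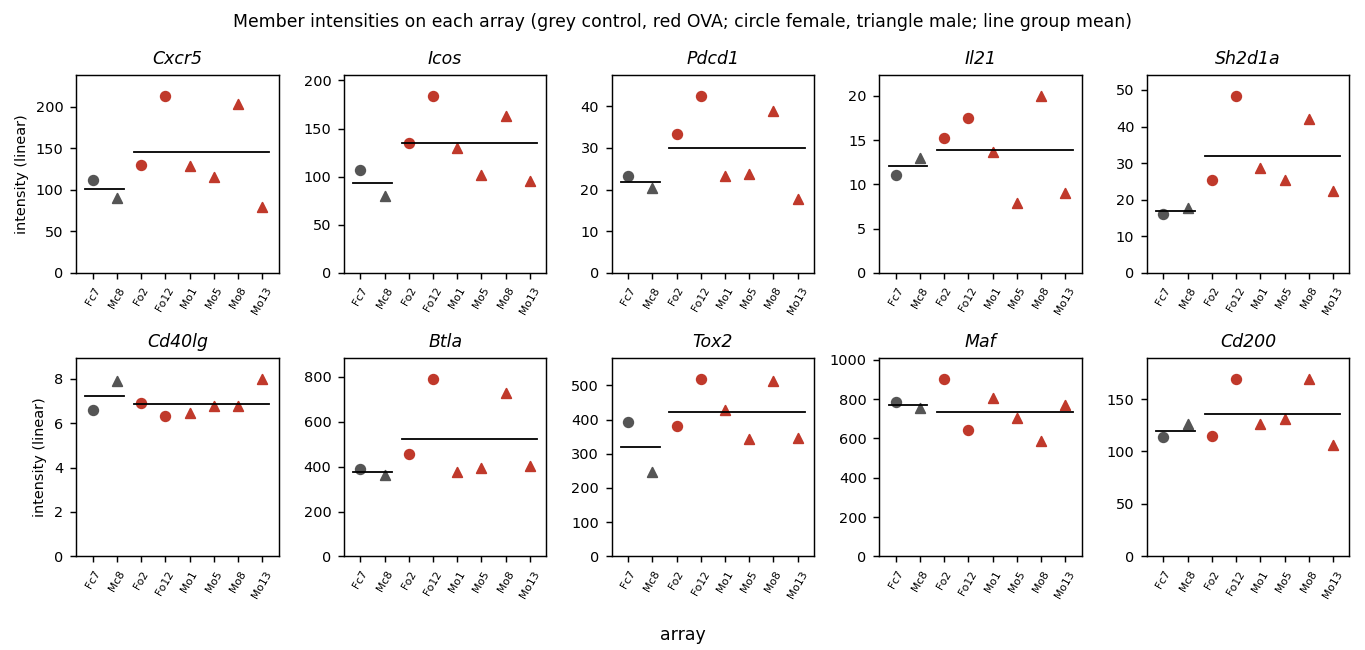
Intensity (linear axis from 0) of the brightest probe set of each of the 10 genes on each of the 8 arrays; F and M mark the sex, c control and o OVA, the number is the mouse, and the black lines are group means. Female OVA 12 and male OVA 8 are the 2 highest arrays for 8 of the 10 genes; Maf and Cd40lg are the exceptions, and only for Sh2d1a do all 6 OVA arrays lie above both controls.

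The chemokine receptor Cxcr5, which B cells also carry, read 111.4 in female control 7 and 90.5 in male control 8. In the OVA mice it read 129.9 in female 2, 213.3 in female 12, 129.3 in male 1, 115.1 in male 5, 203.8 in male 8 and 79.3 in male 13. The groups overlap through male 13, the lowest of all 8 arrays, while the other 5 OVA mice exceed both controls. Group means were 101.0 ± 14.8 (SD, n = 2) and 145.1 ± 52.6 (SD, n = 6), a difference of 0.50 ± 0.31 (SE) with a limma adjusted p of 0.54.

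Icos, the costimulatory receptor whose ligand on B cells sustains follicular helper cells, was measured by 3 probe sets, all past the filter. On the brightest, 1421930_at, the controls read 107.1 and 80.3, and the OVA mice 135.2 and 184.1 in females 2 and 12 and 129.3, 102.1, 162.9 and 96.0 in males 1, 5, 8 and 13. Males 5 and 13 lie between the controls and the other 4 OVA mice lie above both. The difference was 0.55 ± 0.20 (SE), which had an unadjusted p under 0.05 and an adjusted p of 0.41 (limma). The other 2 probe sets gave 0.37 ± 0.22 (1436598_at) and 0.53 ± 0.18 (1421931_at), so the 3 have 1 direction.

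Pdcd1 encodes PD1, the inhibitory receptor by which follicular helper cells are commonly gated. It read 23.2 and 20.5 in the controls, 33.4 and 42.5 in OVA females 2 and 12, and 23.1, 23.7, 38.9 and 17.7 in OVA males 1, 5, 8 and 13. Both OVA females and male 8 stand above the controls by far more than male 5 does, and male 13 is the lowest array. The difference was 0.40 ± 0.23 (SE), adjusted p = 0.52 (limma).

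Btla, an inhibitory receptor shared by B cells and T cells that binds TNFRSF14, was among the brightest of the 10 genes. It read 391.7 and 362.1 in the controls, 456.9 and 790.1 in OVA females 2 and 12, and 377.0, 394.8, 729.1 and 401.9 in OVA males 1, 5, 8 and 13. Female 12 and male 8 are set apart from a narrow band that holds the other 6 arrays, controls included. Means were 376.9 ± 20.9 (SD, n = 2) and 525.0 ± 185 (SD, n = 6), and the difference was 0.46 ± 0.29 (SE), adjusted p = 0.54 (limma).

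Sh2d1a encodes SAP, the adaptor that lets SLAM family receptors hold T cells and B cells together and without which germinal centre help fails. It read 16.2 and 17.8 in the controls, 25.4 and 48.4 in OVA females 2 and 12, and 28.7, 25.5, 42.0 and 22.3 in OVA males 1, 5, 8 and 13. All 6 OVA mice exceed both controls, and Sh2d1a is the one tested gene of the 9 whose groups do not overlap in that direction, as is so for 7.99% of all genes (4.65% in the other direction). Its means were 17.0 ± 1.13 (SD, n = 2) and 32.1 ± 10.6 (SD, n = 6). The difference of 0.74 ± 0.25 (SE) was the largest of the 10 genes; its unadjusted p was under 0.05 and its adjusted p 0.41 (limma).

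The secreted and surface helper signals were dim. Il21, the cytokine that drives germinal centre and plasma cell differentiation, read 11.1 and 13.0 in the controls, 15.3 and 17.5 in OVA females 2 and 12, and 13.7, 7.9, 19.99 and 9.0 in OVA males 1, 5, 8 and 13. The OVA mice lie on both sides of the controls, and the difference was 0.15 ± 0.24 (SE), adjusted p = 0.83 (limma). A second Il21 probe set, 1447288_at, stayed between 3.9 and 4.8 on all arrays and was not tested. Cd40lg, the ligand for CD40 on B cells, read 6.6 and 7.9 in the controls and 6.3 to 8.0 in the OVA mice (median 6.8), below the filter, so its difference of -0.056 has no test.

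Cd200, a membrane protein of follicular helper cells, B cells and endothelium that signals through CD200R1, read 113.5 and 125.8 in the controls. In the OVA mice it read 114.7 and 168.9 in females 2 and 12 and 126.6, 131.3, 168.7 and 106.0 in males 1, 5, 8 and 13. The groups overlap, and the difference was 0.16 ± 0.19 (SE), adjusted p = 0.75 (limma).

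Of the 2 transcription factors, Tox2, an HMG-box factor that acts beside BCL6 in follicular helper cells, read 392.7 in female control 7 and 245.8 in male control 8. OVA females 2 and 12 read 381.9 and 518.0, and OVA males 1, 5, 8 and 13 read 428.4, 343.8, 512.6 and 345.5. The 2 controls differ from each other in intensity by more than any OVA mouse differs from female control 7, and 3 of 6 OVA mice exceed both controls. The difference was 0.46 ± 0.20 (SE), which had an unadjusted p under 0.05 and an adjusted p of 0.44 (limma). This probe set, 1440156_s_at, carries the suffix for probes that match more than 1 transcript; the other Tox2 probe set, 1457757_at, read 4.0 to 8.7 and was not tested.

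Maf, the bZIP factor that promotes Il21 in T cells and is also made by macrophages and other tissue cells, was the exception. Its brightest probe set, 1456060_at, read 784.0 and 754.6 in the controls, 901.9 and 641.2 in OVA females 2 and 12, and 804.9, 702.0, 588.2 and 773.0 in OVA males 1, 5, 8 and 13, a difference of -0.065 ± 0.16 (SE). All 6 Maf probe sets had a negative difference and none passed the adjusted threshold. On 2 of them every OVA array lay below both controls, and the share of all probe sets for which this holds was not counted. The 4.65% of genes given above counts only the brightest probe set of a gene, and on that of Maf the groups overlap. Probe set 1437473_at read 933.7 and 972.3 in the controls and 387.8 to 849.7 in the OVA mice (median 725.7), a difference of -0.52 ± 0.26 (SE) with adjusted p = 0.48 (limma). Probe set 1444073_at read 29.5 and 30.8 in the controls and 14.5 to 24.0 in the OVA mice (median 18.6), a difference of -0.58 ± 0.16 (SE) with adjusted p = 0.38 (limma). The remaining 3 gave -0.006, -0.16 and -0.28, so the size of the Maf difference varies widely with the probe set; male OVA 8 was lowest or next to lowest on each of the 6.

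**Figure D2:**
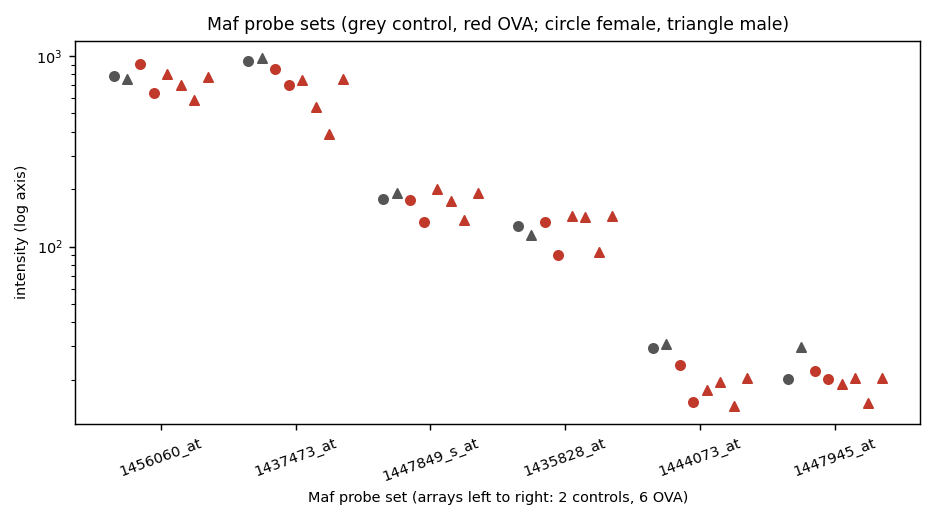
Intensity (log axis) of the 6 Maf probe sets on each array, with 2 controls in grey and then 6 OVA arrays in red from left to right in each group of points; circles are females and triangles males. The OVA points of 1437473_at and 1444073_at all lie below both control points, while those of the brightest probe set, 1456060_at, lie on both sides.

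The T cell reference Cd3e, the epsilon chain of the T cell receptor complex, read 80.1 and 72.8 in the controls, 59.0 and 82.4 in OVA females 2 and 12, and 77.9, 77.9, 110.8 and 77.9 in OVA males 1, 5, 8 and 13. The exactly equal value in 3 mice is as deposited, and 51.5% of all probe sets have equal values on 2 or more arrays. Cd3e differed by 0.031 ± 0.18 (SE), while the other CD3 chains differed by 0.31 ± 0.21 (Cd3d) and 0.25 ± 0.20 (Cd3g) and Cd4 by 0.084 ± 0.14. None of these 4 passed the adjusted threshold.

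Subtracting Cd3e on the same array shifted every fitted difference by -0.031, so signs and medians follow from the fit above and are not a second result. Relative to Cd3e, 8 of the 9 tested genes stayed positive, where 47.6% of 11987 genes were. The median over the 10 genes was 0.40, against -0.012 over all genes, and 0.071 within males, which is also the value without female control 7. Sh2d1a relative to Cd3e (log2 of Sh2d1a minus log2 of Cd3e) was -2.01 and -1.78 in the controls, -1.07 and -0.71 in OVA females 2 and 12, and -1.30, -1.45, -1.30 and -1.61 in OVA males 1, 5, 8 and 13. All 6 OVA mice are again above both controls, as for 2.96% of genes in this direction and 0.934% in the other. Its difference was 0.71 ± 0.25 (SE), and that of Icos 0.52 ± 0.24. These 2 of 9 genes had an unadjusted p under 0.05 with a positive difference, as did 1.84% of all genes. Every gene there carries the spread of the same Cd3e values, so errors are shared between genes and these p-values can be too small. After adjustment 0.00% of genes passed and the adjusted p of each of the 9 tested genes was 1.00 (limma).

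Any reference moves the fitted difference of every gene by the same amount. The values on Cd3e and on other references thus show where the genes lie against that reference and not a change of their own. Cxcr5 went from 0.50 as deposited to 0.47 relative to Cd3e, 0.19 relative to the mean of the T cell list and -0.12 relative to Cd79b, a chain of the B cell receptor complex. Icos gave 0.55, 0.52, 0.23 and -0.075 on the same 4 scales, Btla 0.46, 0.43, 0.15 and -0.16, and Tox2 0.46, 0.43, 0.15 and -0.16. Sh2d1a kept a positive sign on all 4, at 0.74, 0.71, 0.43 and 0.12. Over the 9 tested genes, 6 were positive relative to the T cell list, as were 9.62% of all genes, and 1 relative to Cd79b, as were 1.08%. The median of all genes went from 0.019 to -0.29 with the T cell list and to -0.60 with Cd79b, and the median of the 10 genes lay 0.41 above it on each scale.

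**Figure D3:**
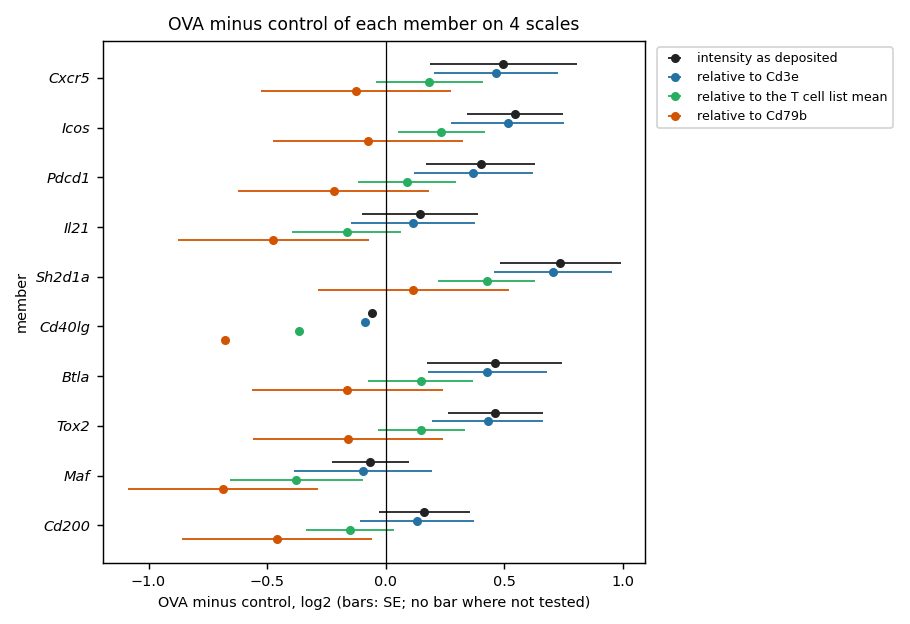
OVA minus control (log2) for each of the 10 genes as deposited and relative to Cd3e, to the mean of the T cell list and to Cd79b on the same array; points are fitted differences, bars are SE, and Cd40lg has no bar because it was below the filter. The black and blue points lie right of 0 for 8 of the 9 tested genes and the Cd79b points left of 0 for 8 of 9, Sh2d1a being the one on the right.

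Much of the spread lies among the OVA mice. Female OVA 12 and male OVA 8 were the 2 highest of the 8 arrays for 8 of the 9 tested genes, all but Maf, a pattern found in 20.8% of all genes. With both of these mice left out, a choice made after seeing the data, 7 of 9 genes had a positive difference as deposited, 6 of them among the 8 that were positive over all arrays: Il21 went to -0.021 and Cd200 to -0.027, and Maf to 0.085. Relative to Cd3e all 9 were positive without them, Maf having gone from -0.096 to 0.20, and the median of all genes was 0.11 there. None passed the adjusted threshold. The lowest array was a control for 4 of the 9, and the share of all genes for which this holds was not counted.

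**Figure D4:**
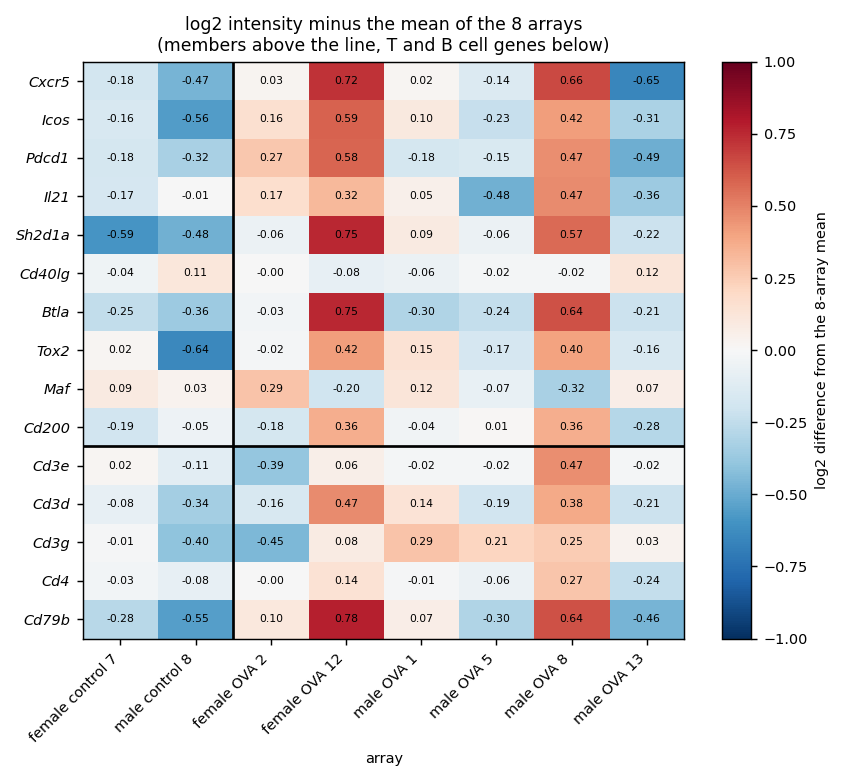
Each cell is the log2 intensity of a gene on an array minus that gene's mean over the 8 arrays (red above, blue below), for the 10 genes and, under the line, for Cd3e, Cd3d, Cd3g, Cd4 and Cd79b; the vertical line separates the 2 controls from the 6 OVA mice. Columns female OVA 12 and male OVA 8 are above 0 for 8 of the 10 genes and for every gene under the line. Cd79b is at 0.78 and 0.64 there and Cd3e at 0.06 and 0.47. Cd3d is at 0.47 and 0.38, Cd3g at 0.08 and 0.25, and Cd4 at 0.14 and 0.27. Maf is blue in these columns (-0.20 and -0.32).

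The same arrays were high for B cell and T cell genes and low for gut epithelium. The mean log2 level of the 10 genes, centred on the 8 arrays, was -0.16 and -0.27 in the controls, 0.063 and 0.42 in OVA females 2 and 12, and -0.005, -0.15, 0.36 and -0.25 in OVA males 1, 5, 8 and 13. The B cell list of 19 measured genes was -0.34 and -0.44 in the controls, -0.079 and 0.59 in the females, and 0.073, -0.15, 0.66 and -0.32 in the males. The T cell list of 18 was -0.13 and -0.33 in the controls and -0.16 and 0.30 in the females. In the males it was 0.068, 0.004, 0.36 and -0.12. The epithelium list of 14 was 0.17 and 0.27 in the controls, 0.088 and -0.13 in the females, and -0.043, -0.10, -0.42 and 0.18 in the males. Its summed intensity ran from 27357 to 28367 in the controls and from 18740 to 28042 in the OVA mice. Other lists of the wall differed between female OVA 12 and male OVA 8. The smooth muscle list was at 0.23 in female OVA 12 and -0.21 in male OVA 8, and the endothelium list at 0.21 and -0.042. The part that the amount of follicle or of gut wall on an array has in the difference of the 10 genes was not tested.

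Female OVA 12 and male OVA 8 differ in a measure of RNA integrity. The actin 3′ to 5′ signal ratio was 1.32 in female OVA 12 and 1.58 in male OVA 8, against 1.43 and 1.54 in the controls and 1.29 to 1.37 in the other 4 OVA mice. The trimmed mean intensity of the 8 arrays ran from 65.1 to 68.2, and no pair of arrays was identical. The part of RNA quality was not tested.

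**Figure D5:**
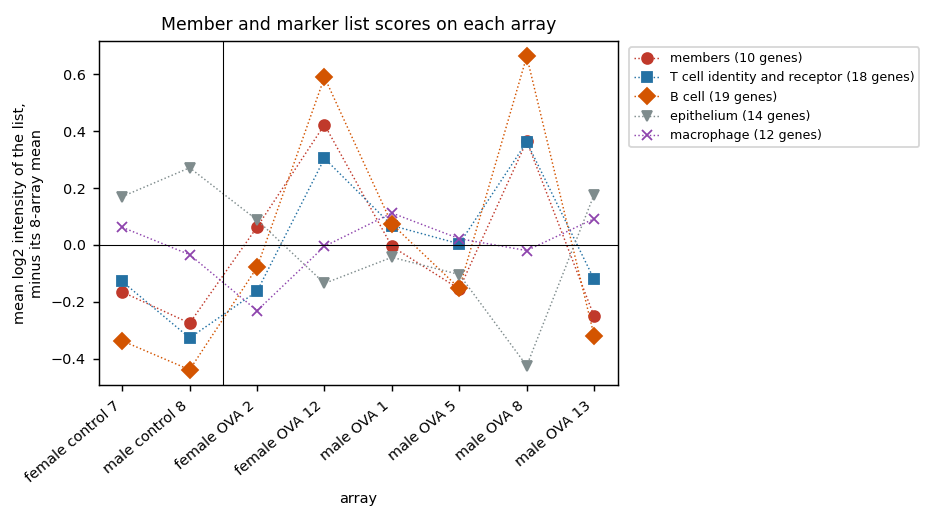
Mean log2 intensity of the 10 genes and of 4 marker lists on each array, minus the list's mean over the 8 arrays; dotted lines only join the points of a list, and the vertical line separates controls from OVA mice. The 10 genes (0.42 and 0.36) and the B cell list (0.59 and 0.66) peak in female OVA 12 and male OVA 8. The T cell list peaks there too (0.30 and 0.36), and the epithelium list is at -0.13 and -0.42.

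Without Maf and Cd40lg, the other 8 genes tracked each other over the 8 arrays, with Pearson's r between 0.59 and 0.95 over 28 pairs (median 0.84). Maf had a negative r with each of these 8 (-0.86 to -0.38), as had Cd40lg (-0.76 to -0.38). These are descriptions over 8 arrays that share the high and low mice above. Correlations with the B cell mean were 0.77 to 0.96 and with the T cell mean 0.58 to 0.92, and 7 of the 8 genes had the higher r with the B cell mean. The same values were not taken over all genes. With single genes they were 0.82 to 0.98 for Cd79b and 0.30 to 0.66 for Cd3e, and with the epithelium mean -0.84 to -0.53. Maf ran the other way, with r = -0.88 with Cd3e, -0.77 with the T cell mean and 0.75 with the epithelium mean.

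Among all other genes, the 8 whose level was most like the mean of the 9 tested genes over the 8 arrays were Cd79b (r = 0.998), Rcsd1 (0.992), Cd2 (0.991), Cmtm7 (0.990), Ipo5 (0.990), Sh3bp5 (0.989), Ctdp1 (0.989) and Hmgn1 (0.988). Cd79b read 739.7 and 609.8 in the controls, 964.6 and 1544 in OVA females 2 and 12, and 940.4, 727.9, 1396 and 649.9 in OVA males 1, 5, 8 and 13, a difference of 0.62 ± 0.29 (SE) with adjusted p = 0.46 (limma). Cd2, an adhesion receptor of lymphocytes that stands on the T cell list here, differed by 0.64 ± 0.31 (SE). It read 148.3 and 117.7, then 192.7 and 341.9, then 176.8, 133.2, 279.2 and 130.7 in the same order. In both, female OVA 12 and male OVA 8 are the highest arrays.

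Between the sexes, all 9 tested genes were higher in females than in males with treatment in the model, as were 46.0% of all genes, and none passed the adjusted threshold, as 0.0417% of all genes did (5 of 11988). Without female OVA 12, Sh2d1a (-0.14) and Cd200 (-0.17) were lower in females, without female OVA 2 Maf was (-0.071), and without male OVA 13 Cd200 was (-0.054). The largest differences were 0.41 ± 0.21 (SE) for Pdcd1, 0.39 ± 0.18 for Icos and 0.37 ± 0.28 for Cxcr5, with adjusted p of 0.90, 0.90 and 0.91 (limma). Within females OVA minus control was positive for 8 of 9 genes (56.2% of all genes), and within males for 7 of 9 (51.3%). Sh2d1a differed by 0.93 within females and 0.57 within males, Pdcd1 by 0.60 and 0.23, Il21 by 0.41 and -0.075 and Tox2 by 0.18 and 0.70. The test of the difference in the OVA effect between the sexes called 0.00% of genes; for Tox2 it gave -0.52 ± 0.39 (SE) and for Il21 0.49 ± 0.50, with adjusted p of 0.78 and 0.85 (limma). Each sex has 1 control.

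Other genes of the follicular helper programme had a smaller median difference. Of 26 listed, 24 have a probe set and 22 passed the filter. A positive difference was found for 19 (53.7% of all genes tested), 5 with an unadjusted p under 0.05 (limma, 6.39% of all genes). None passed the adjusted threshold. Their median was 0.17, against 0.019 over all genes. The 3 of smallest p were Batf, an AP-1 family factor needed for follicular helper and switched B cells, at 0.65 ± 0.16 (SE), the SLAM receptor Slamf1 at 0.64 ± 0.22 and OX40 (Tnfrsf4), a costimulatory receptor, at 0.34 ± 0.12. Bcl6, the repressor that defines follicular helper and germinal centre B cells, gave 0.55 ± 0.27 (SE), and its adjusted p was 0.48 (limma). Ascl2, a factor that induces Cxcr5, gave 0.032 ± 0.11, and Il4, a follicular helper cytokine, stayed below the filter.

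A list of 14 genes, most of them ligands and receptors, holds partners of the 10 genes and of SLAM receptors. It also holds the cytokines Il6 and Il12a, which promote follicular helper cells and pair with none of the 10. Of the 14 genes, 11 passed the filter. A positive difference was found for 8 (53.7% of all genes tested), 4 with an unadjusted p under 0.05 (limma, 6.39% of all genes). None passed the adjusted threshold. Their median was 0.46 over the genes past the filter and 0.30 over all 12 with a probe set, where the 10 follicular helper genes had 0.46 past the filter and 0.43 in all. Il12a, a subunit of interleukin 12, differed by 0.72 ± 0.22 (SE), the interleukin 21 receptor Il21r by 0.65 ± 0.22 and the SLAM receptor Slamf7 by 0.51 ± 0.19. Cxcl13, the chemokine bound by CXCR5, read 1629 ± 379 (SD, n = 2) and 2403 ± 629 (SD, n = 6), a difference of 0.58 ± 0.24 (SE) with adjusted p = 0.43 (limma). The partner of CD40 ligand, Cd40, gave 0.46 ± 0.22. Values near 0 were given by the ICOS ligand Icosl (-0.050 ± 0.16), the PD1 ligands Cd274 (-0.19 ± 0.16) and Pdcd1lg2 (0.13 ± 0.14), the BTLA partner Tnfrsf14 (-0.15 ± 0.24) and Cd200r1 (0.037 ± 0.14).

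Markers of the cells around follicular helper cells were read the same way, and none of their genes passed the adjusted threshold. Over all genes tested, 53.7% had a positive difference, and 6.39% had one with an unadjusted p under 0.05 (limma). The genes of a list were read on the same arrays, so the counts below are not separate results. Of 17 T cell genes past the filter 16 had a positive difference, with a median of 0.31; the 3 of smallest p were the CD8 beta chain Cd8b1 (0.58 ± 0.11, SE), the activation marker Cd69 (0.72 ± 0.27) and the receptor zeta chain Cd247 (0.45 ± 0.18). Regulatory T cell genes, 8 past the filter, had a median of 0.13, led by Tnfrsf18 (0.31 ± 0.18), Ctla4 (0.34 ± 0.21) and Nt5e (0.34 ± 0.29), and Foxp3, their defining factor, was below the filter. All 19 B cell genes were positive with a median of 0.58, and 6 had an unadjusted p under 0.05; Fcrla gave 0.92 ± 0.29, Vpreb3 0.89 ± 0.27 and the BAFF receptor Tnfrsf13c 0.81 ± 0.31. Of 15 germinal centre B cell genes 14 were positive, 8 with an unadjusted p under 0.05, and the median was 0.48; Rgs13 gave 1.13 ± 0.38, Neil1 0.90 ± 0.34 and Basp1 0.67 ± 0.24.

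Genes of the wall and its other cells had medians near or below 0. Over all genes tested, 53.7% had a positive difference, and 3.82% had a negative one with an unadjusted p under 0.05 (limma). All 14 epithelium genes were negative, with a median of -0.25 and 4 with an unadjusted p under 0.05, led by the epithelial factors Elf3 (-0.55 ± 0.17, SE), Cdx1 (-0.47 ± 0.18) and Cdx2 (-0.40 ± 0.16). All 10 smooth muscle genes were negative with a median of -0.22, and Myh11, the smooth muscle myosin chain, gave -0.47 ± 0.17, Mylk -0.24 ± 0.13 and Synm -0.32 ± 0.21. Of 12 endothelium genes 9 were negative, with a median of -0.083; Tie1 gave -0.30 ± 0.11, Kdr -0.34 ± 0.13 and Madcam1, the addressin of patch venules, 0.54 ± 0.24. The 10 macrophage genes past the filter split evenly, with a median of 0.023; Fcgr1 gave -0.32 ± 0.15, Mrc1 -0.23 ± 0.14 and Cd68 0.37 ± 0.22. The 4 neuron and glia genes past the filter had a median of 0.085, and Stmn2 gave 0.49 ± 0.23, Prph 0.10 ± 0.11 and Ret 0.066 ± 0.12.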

How the data were processed

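Total RNA of 8 Peyer's patch samples was labelled with biotin and read on 1-colour Affymetrix arrays. The authors deposited linear intensity values for 45101 probe sets, between 1.86 and 14749; MAS5 is named per the submitters' processing notes, and the sources used here do not give its version or scaling target. Trimmed means differ between arrays and 51.5% of probe sets repeat a value across arrays, so the step that produced the values is not settled, and they were used as deposited. No scan batch was analysed here. Groups were taken from the treatment and sex in the labels. Rows of AFFX controls (64) were dropped. A single gene is annotated to 34958 probe sets, more than 1 to 932 and no gene to 9211; only the first kind was named. Intensities were taken to log2(value + 4.88), 4.88 being their 25th percentile, and not rescaled.

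All tests were fitted on the 22518 probe sets whose mean log2 value exceeded the median with limma 3.58.1 (lmFit, eBayes) in R 4.3.3, two-sided, with Benjamini-Hochberg adjustment over the table at 0.05: treatment and sex additively (5 residual degrees of freedom), the same after subtracting Cd3e, and 4 group means for the difference between sexes (4). After subtracting Cd3e all probe sets share its spread, so the p-values of that fit can be too small. The script was tested on simulated data. The labels number the samples and do not state that each is a separate animal, so p-values measure the spread between these arrays, whose number limits the precision. The genes named were all 10 members, Cd3e and its companions, the 3 genes of smallest p per list and the 8 most alike; Bcl6, Ascl2, Il4, Foxp3, Cd4 and further partner genes were named after their values were seen. The members and lists were chosen with earlier results of these data known. Alternatives covered the pseudocount, normalization, filter, variance model, probe set summary, Cd3e substitute, sex and each mouse left out. Promoter windows come from RefSeq (GRCm38.p6), read with Python 3.11.15.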

Additional observations from a re-analysis of the deposited data

How the results depend on the processing

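No member passed the threshold under any alternative: of 210 member values for OVA minus control 9 changed sign, of 240 relative to Cd3e 24, of 90 for the sexes 4 and of 60 for their difference in the OVA effect 10, with smallest adjusted p of 0.33, 0.18, 0.47 and 0.44 (limma). Cxcr5, Icos, Pdcd1, Sh2d1a, Btla and Tox2 kept a positive OVA minus control in all 22 fits, and the median over the 10 genes ran from 0.18 to 0.51 over the alternatives. Some alternatives cannot move a difference or repeat another fit, so these counts overstate the number of separate checks. Another filter or the trend and robust variance model left every OVA minus control value unchanged. The fits within females and within males gave the values of those without the male or the female control. Between the sexes, the fit on OVA arrays alone and those without a control gave the same values.

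Beside the fits with 1 mouse left out, signs that changed for OVA minus control were Il21 within males (-0.075), the untested Cd40lg within females (0.0023), Maf with array weights (0.056) and, with female OVA 12 and male OVA 8 both left out, Il21 (-0.021), Maf (0.085) and Cd200 (-0.027). Relative to Cd3e they were Il21 and Cd200 within males (-0.29 and -0.15), Maf and Cd40lg within females (0.14 and 0.19) and without both mice (0.20 and 0.068). With the mean CD3 chain as reference Il21 gave -0.049 and Cd200 -0.033, with the T cell list -0.17 and -0.15. With Cd79b as reference the values were -0.12 for Cxcr5, -0.075 for Icos, -0.22 for Pdcd1, -0.47 for Il21, -0.16 for Btla, -0.16 for Tox2 and -0.46 for Cd200. The cause was not tested, and a reference moves every gene alike: the median of all genes, 0.019 with none, shifted by -0.20 with the CD3 mean, -0.31 with the T cell list and -0.62 with Cd79b.

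The median of the 10 genes relative to Cd3e was 0.071 within males and -0.19 with Cd79b. Probe sets past the threshold relative to Cd3e numbered 32 with no filter, 1 with probe sets of a gene averaged, 10 without both mice and 25 with Cd79b, against 0; none was a member. The regulatory T cell list moved to -0.0069 within females and to -0.00645 with averaged probe sets, and the macrophage list to 0.10 within males.

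With 1 mouse left out in turn, OVA minus control ran from -0.075 to 0.41 for Il21 and -0.16 to 0.026 for Maf; Cd40lg turned positive without male control 8 (0.0023, and 0.19 relative to Cd3e). Relative to Cd3e the median ran from 0.071 (without female control 7) to 0.66, the probe sets past the threshold from 0 to 48 (without male OVA 8; 12 without female OVA 12, 14 without male OVA 1, 22 without male OVA 5 and 16 without male OVA 13), Il21 from -0.29 to 0.60, Maf from -0.31 to 0.14 and Cd200 from -0.15 to 0.47. Female minus male ran from -0.14 to 0.36 for Sh2d1a, -0.071 to 0.23 for Maf and -0.17 to 0.16 for Cd200. The difference in the OVA effect ran from -0.048 to 0.48 for the median, -0.23 to 0.46 for Cxcr5, -0.23 to 0.20 for Icos, -0.050 to 0.76 for Sh2d1a, -0.11 to 0.67 for Btla, -0.20 to 0.28 for Maf and -0.046 to 0.49 for Cd200. The regulatory T cell list ran from -0.0069 to 0.18 and the macrophage list from -0.14 to 0.10. No paired analysis was made, because the labels pair no control with an OVA mouse. Dim genes, Il21 and Cd40lg among them, lie near the floor of the array.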
